A study of Mus musculus with 6 samples.

Results

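Expression of 10 immediate early genes was examined in neurospheres grown from the adult mouse forebrain. The genes encode the zinc finger factors Egr1, Egr2 and Egr3, the nuclear receptors Nr4a1, Nr4a2 and Nr4a3, the neuronal factor Npas4, the synaptic protein Arc, the growth factor response protein Ier2 and the antiproliferative protein Btg2. They were taken by name, with the 1 probe set that pairs with each gene alone. All 10 were found among the 22180 genes tested. The MG cultures came from 3 offspring of CD1 mothers given MG, read here as methylglyoxal from the series title, at 0.5 mg/kg by intraperitoneal injection 2 times a day from gestational day 12 until delivery. The PBS cultures came from 3 offspring of CD1 mothers that were given PBS on the same schedule. In both groups, cells of the subependymal region of 2-month-old offspring were plated at 2 cells per µl and grown for 7 days in serum-free medium with EGF at 20 ng/ml, FGF2 at 10 ng/ml, B27 supplement and heparin. Total RNA was read on Affymetrix Mouse Gene 2.0 ST arrays, 1 array per culture. CD1 is an outbred stock, and the labels do not state litter or sex. A shared mother would make the p-values too small. The cultures are named primary in the titles and secondary in the descriptions.

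Immediate early genes are transcribed within minutes of a stimulus from factors that are already present in the cell. Growth factors such as EGF and FGF2 act through the ERK kinases on serum response factor and its ternary complex partners, which bind CArG boxes. Cyclic AMP and calcium act through CREB and its CRTC coactivators, which bind the cyclic AMP response element, or CRE. The Egr proteins bind GC-rich sites and are held back by the corepressors Nab1 and Nab2. The Nr4a receptors bind DNA without a classical ligand, alone or, for Nr4a1 and Nr4a2, paired with retinoid X receptors. Npas4 pairs with Arnt2 in neurons. Arc regulates the uptake of AMPA receptors at synapses, and Btg2 restrains cell division and binds the CCR4-NOT deadenylase.

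RefSeq windows upstream of a transcription start were at hand for 6 of the 10 genes, namely Egr2, Nr4a1, Nr4a2, Nr4a3, Npas4 and Btg2. The sequences below, on build GRCm38.p6 and read along the gene's strand, show matches of letters to the CRE and the CArG box. They cover the 3 Nr4a genes, which were not all highest on the same array, and Btg2, which holds the complete CRE. Of Egr2, for which 5 starts were listed, 2 different CArG boxes lay in the windows, and only the stretch around the one beside a CRE core is shown. Capitals mark the CRE core TGACG on either strand, the complete CRE TGACGTCA, which holds the core on both strands, or the CArG box.
Nr4a1, chr15:101266596-101266845, plus strand: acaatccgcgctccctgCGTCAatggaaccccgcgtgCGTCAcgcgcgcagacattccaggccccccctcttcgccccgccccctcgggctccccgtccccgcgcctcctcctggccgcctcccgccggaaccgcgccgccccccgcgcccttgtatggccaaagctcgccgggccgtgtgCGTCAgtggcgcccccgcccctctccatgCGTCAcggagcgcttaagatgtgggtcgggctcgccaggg
Nr4a2, chr2:57124004-57124253, minus strand: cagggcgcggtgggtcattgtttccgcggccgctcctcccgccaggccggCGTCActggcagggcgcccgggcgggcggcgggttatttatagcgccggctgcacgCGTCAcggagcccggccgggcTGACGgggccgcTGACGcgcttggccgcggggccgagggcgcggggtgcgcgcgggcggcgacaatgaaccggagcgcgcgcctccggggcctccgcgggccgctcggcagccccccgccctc
Nr4a3, chr4:48045055-48045304, plus strand: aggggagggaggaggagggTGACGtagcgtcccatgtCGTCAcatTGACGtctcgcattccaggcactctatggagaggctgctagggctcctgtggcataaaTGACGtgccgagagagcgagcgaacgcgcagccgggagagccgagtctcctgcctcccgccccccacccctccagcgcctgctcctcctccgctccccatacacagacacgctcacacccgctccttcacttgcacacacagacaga
Btg2, chr1:134079156-134079405, minus strand: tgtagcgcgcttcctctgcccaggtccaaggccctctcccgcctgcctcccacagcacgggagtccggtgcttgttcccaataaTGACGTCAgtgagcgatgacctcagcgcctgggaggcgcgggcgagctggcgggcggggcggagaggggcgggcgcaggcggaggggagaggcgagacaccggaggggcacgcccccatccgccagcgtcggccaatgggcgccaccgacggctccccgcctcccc
Egr2, chr10:67537793-67537822, plus strand: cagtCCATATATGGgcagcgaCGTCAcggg

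The CRE core occurred in the 250 bases before at least 1 listed start of all 6 genes, against 19.8% of the 27025 genes with such a window. Nr4a1, Nr4a2 and Nr4a3 each held 4 cores, and Egr2 and Npas4 held 2. The complete CRE was present in Btg2, with its first base 166 bases before the start, against 1.77% of all genes. The CArG box was present in Egr2 and in 1.62% of all genes. The EGR site GCGNGGGCG, searched on both strands, occurred in Nr4a1, Nr4a2 and Btg2 and in 5.33% of all genes. The Nr4a element AAAGGTCA was not found in these 6 windows and occurred in 1.55% of all genes. These are matches of letters in a fixed window and not measured binding sites.

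The neural stem cell genes Sox2 and Nes were bright on all arrays, Sox2 at 11.27, 11.19 and 10.99 in MG cultures and 11.13, 11.17 and 11.18 in PBS cultures on the log2 scale. Nes, the intermediate filament nestin, stood at 10.73, 10.61 and 10.64 in MG cultures and at 10.68, 10.89 and 10.58 in PBS cultures. The 10 stem and progenitor markers tested had a mean level of 10.34 to 10.45 in MG cultures and 10.23 to 10.39 in PBS cultures. In both groups Fabp7, Vim, Egfr and Sox9 of that list had higher means than Sox2 and Nes. Hes5, Pax6, Msi1 and Prom1 had lower ones. Astrocyte markers averaged 9.16 to 9.82 in MG cultures. Sox2 and Nes alone do not identify the cells. As a measure of background, 95% of 1394 genes for olfactory and vomeronasal receptors had a mean below 5.02, which is called the reference level, and 13725 genes exceeded it in both groups. Microglial markers were mostly under it, with 3 of 10 above and list means of 4.75 to 4.86 in MG cultures and 4.81 to 4.89 in PBS cultures. The median of all probe sets was 5.25, 5.36 and 5.34 on MG arrays 1, 2 and 3, and 5.36, 5.29 and 5.42 on PBS arrays 1, 2 and 3. Arrays numbered 3 of both groups stood apart in genes of DNA replication, at a mean deviation of 0.47 in MG replicate 3 and 0.45 in PBS replicate 3, against values from -0.42 to -0.11 on the other arrays. At most 71 of the 41345 values were identical between any 2 arrays.

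All 10 early genes lay above the reference level in both groups, and none of them differed between MG and PBS cultures beyond the spread of the 3 cultures in each. Mean levels were lower in MG for Egr1, Egr2, Egr3, Nr4a1, Arc, Ier2 and Btg2, and higher for Nr4a2, Nr4a3 and Npas4. The differences ran from -0.33 for Arc to 0.30 for Nr4a3 on the log2 scale, with a median of -0.15, while the median over all genes tested was 0.01. A lower mean in MG was found for 7 of the 10, against 46.2% of all genes tested and 43.1% of those above the reference level. MG replicate 1 held the lowest value of the 6 arrays for 9 of the 10 genes. That array was the lowest for 17.6% of the genes above the reference level and for 15.6% of all genes tested. Levels here are those of whole cultures, so fewer cells that transcribe a gene and less RNA per cell cannot be told apart.

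**Figure D1:**
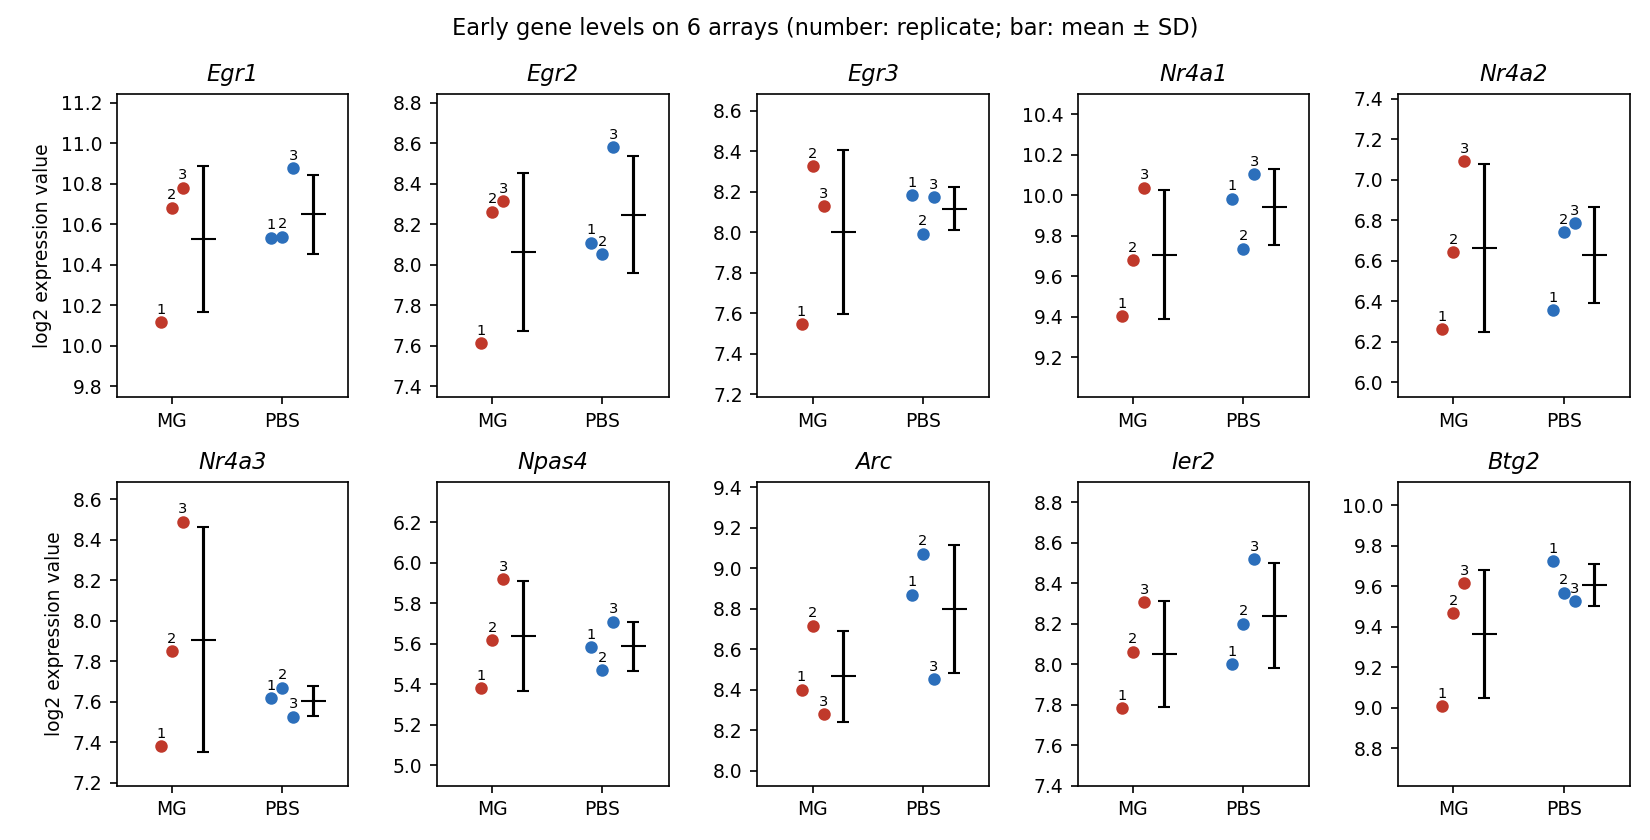
Log2 expression value of each of the 10 genes on the 6 arrays, MG cultures left and PBS cultures right, with the replicate number over each point and the group mean ± SD beside it; every panel spans 1.5 log2 units. MG replicate 1 was the lowest point in 9 panels, and Arc was the exception.

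The Egr genes encode closely related zinc finger factors, of which Egr1 links growth factor signals to target genes, Egr2 is known for its part in hindbrain segmentation and myelination, and Egr3 for muscle spindles and neuronal plasticity. Egr1 stood at 10.12, 10.68 and 10.78 in MG cultures and at 10.53, 10.54 and 10.88 in PBS cultures. MG replicate 1 was the low value, and the other 2 MG cultures lay within the PBS range. Egr1 differed by -0.12 on the log2 scale (standard error 0.20, 95% confidence interval -0.58 to 0.33). In limma all 10 genes had the same Benjamini-Hochberg adjusted p over all genes, 0.9998.

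Egr2 ranked the arrays as Egr1 did, apart from PBS replicates 1 and 2, which were close together in both genes. It stood at 7.61, 8.26 and 8.31 in MG cultures and at 8.11, 8.05 and 8.58 in PBS cultures. Its log2 difference was -0.18 (standard error 0.23, 95% confidence interval -0.70 to 0.34). MG replicate 1 was again low, here by 0.44 under the next array, and PBS replicate 3 was the highest array. Egr3 had 7.55, 8.33 and 8.13 in MG cultures, against 8.18, 7.99 and 8.17 in PBS cultures. Its highest and lowest values were both in MG, so that the SD was 0.41 in MG and 0.11 in PBS (n = 3 each). The log2 difference of Egr3 was -0.12 (standard error 0.20).

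Of the 3 Nr4a genes, Nr4a1 was highest in PBS replicate 3, and Nr4a2 and Nr4a3 in MG replicate 3. Nr4a1, also called Nur77 and known for its role in cell death and T cell signalling, stood at 9.40, 9.68 and 10.04 in MG cultures and at 9.98, 9.74 and 10.10 in PBS cultures. The lower MG values of replicates 1 and 2 lay under all PBS values, while replicate 3 was second only to PBS replicate 3. Its log2 difference was -0.23 (standard error 0.18, 95% confidence interval -0.66 to 0.19). With single arrays left out it ran from -0.40 without MG replicate 3 to -0.083 without MG replicate 1.

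Nr4a2, or Nurr1, which is needed for midbrain dopamine neurons, had 6.26, 6.64 and 7.09 in MG cultures, against 6.36, 6.74 and 6.79 in PBS cultures. The groups overlapped throughout, with MG holding both ends of the range, and the means differed by 0.04 (standard error 0.22). Nr4a3, or Nor1, had 7.38, 7.85 and 8.49 in MG cultures and 7.62, 7.67 and 7.53 in PBS cultures. The 3 PBS cultures were close together, with an SD of 0.07, while the MG cultures lay on both sides of them with an SD of 0.56 (n = 3 each). MG replicate 3 stood 0.64 above the next highest array, which was MG replicate 2. Nr4a3 differed by 0.30 on the log2 scale (standard error 0.25, 95% confidence interval -0.28 to 0.88), and by 0.01 without MG replicate 3. The range of Nr4a3 over the 6 arrays, 1.11, was wider than that of 95.1% of genes above the reference level.

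Npas4 is a basic helix-loop-helix factor induced by calcium entry in neurons. It was the gene closest to the reference level, at 5.38, 5.62 and 5.92 in MG cultures and 5.58, 5.47 and 5.71 in PBS cultures. The groups overlapped, with MG at both ends, and the difference was 0.05 (standard error 0.16). Its lowest value was 0.36 above the reference level.

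Arc was lowest in MG replicate 3, where the other 9 genes were above their means. Its values were 8.40, 8.72 and 8.28 in MG cultures, against 8.87, 9.07 and 8.45 in PBS cultures. The arrays numbered 3 were the lowest of their groups, and the highest MG value lay between the lowest and the middle PBS value. Of the 10 genes it had the largest difference and the smallest unadjusted p, at -0.33 on the log2 scale, or 1.26-fold higher in PBS, with a standard error of 0.19 (95% confidence interval -0.77 to 0.11, limma unadjusted p = 0.120). Leaving out single arrays moved it between -0.50 and -0.19.

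Ier2 had 7.78, 8.06 and 8.31 in MG cultures and 8.001, 8.20 and 8.52 in PBS cultures. The array numbered 3 was the highest of each group, and the groups overlapped. The log2 difference of Ier2 was -0.19 (standard error 0.18), and ran from -0.32 without MG replicate 3 to -0.050 without PBS replicate 3. Btg2 had 9.01, 9.47 and 9.62 in MG cultures, against 9.72, 9.57 and 9.52 in PBS cultures. MG replicates 1 and 2 were under all PBS values and MG replicate 3 was inside their range. The log2 difference of Btg2 was -0.24 (standard error 0.17, 95% confidence interval -0.64 to 0.15, limma unadjusted p = 0.197). It ran from -0.37 without MG replicate 3 to -0.064 without MG replicate 1.

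**Figure D2:**
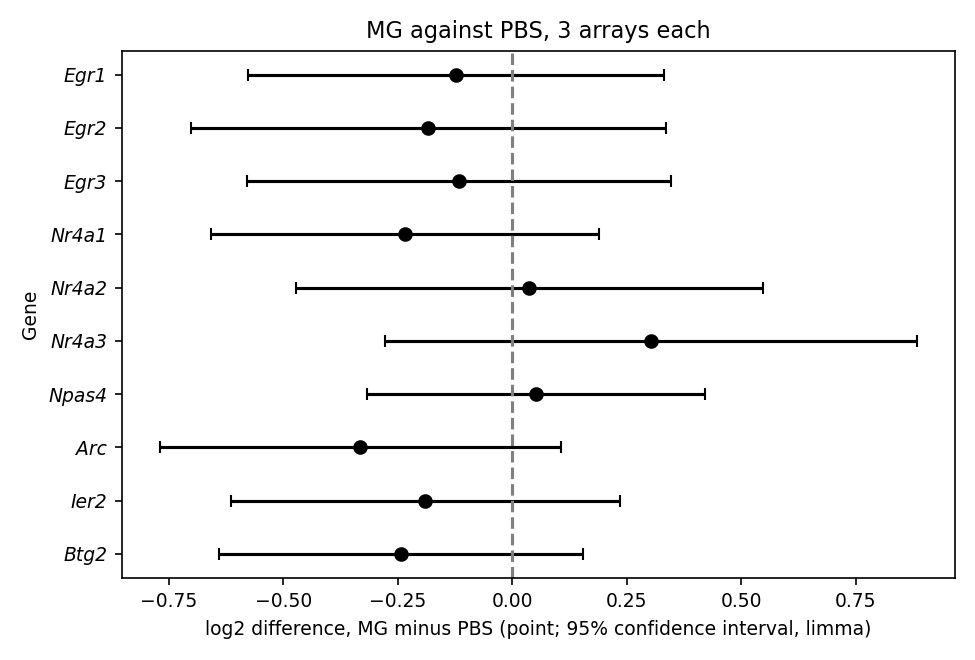
Log2 difference, MG minus PBS, of the 10 genes (points) with the 95% confidence interval from limma (bars), 3 arrays per group. Every interval crossed 0, and the points ran from -0.33 for Arc to 0.30 for Nr4a3.

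None of the 10 genes passed limma's adjusted threshold of 0.05, against 0% of the genes tested. None had an unadjusted p under 0.05, against 3.21% of the genes tested, and in none did the groups lie apart without overlap, against 7.34% (3.31% with MG lower and 4.03% with MG higher). An exact permutation test of 3 against 3 cannot give a two-sided p under 0.1. The intervals were wide. The median standard error of the 10 genes was 0.19, compared with 0.15 over the genes above the reference level, and differences inside the intervals could not be told from 0 here. The count of genes with a lower mean in MG changed with the arrays used. Without MG replicate 1 it was 4 of the 10 and the median difference was 0.06, with Egr1 at 0.082, Egr2 at 0.043 and Egr3 at 0.11, while the other 7 genes kept their sign. Without MG replicate 3 it was 9 of the 10, with Nr4a2 at -0.17 and Npas4 at -0.088. Without both arrays numbered 3 all 10 had a lower mean in MG, and the median difference was -0.15, as over all 6 arrays. The medians of the 4 other early gene, upstream and partner lists described below also fell there. They were -0.18 for regulators, -0.11 for effectors, -0.077 for upstream factors and -0.043 for partners. The share of all genes with a lower mean in MG was not computed for these subsets of arrays. Without PBS replicate 3 the median difference was -0.034.

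Relative to each gene's own mean over the 6 arrays, the 10 genes averaged -0.40, 0.04 and 0.21 in MG replicates 1, 2 and 3, and 0.01, 0.01 and 0.13 in PBS replicates 1, 2 and 3. All 10 were below their own mean in MG replicate 1, where the deviations ran from -0.54 for Egr2 to -0.23 for Arc and Npas4. The median deviation of all genes above the reference level on that array was 0.02. In MG replicate 3 the deviations were above 0 for 9 genes and -0.35 for Arc. The range over the 6 arrays had a median of 0.77 for the 10 genes and of 0.46 for all genes above the reference level.

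**Figure D3:**
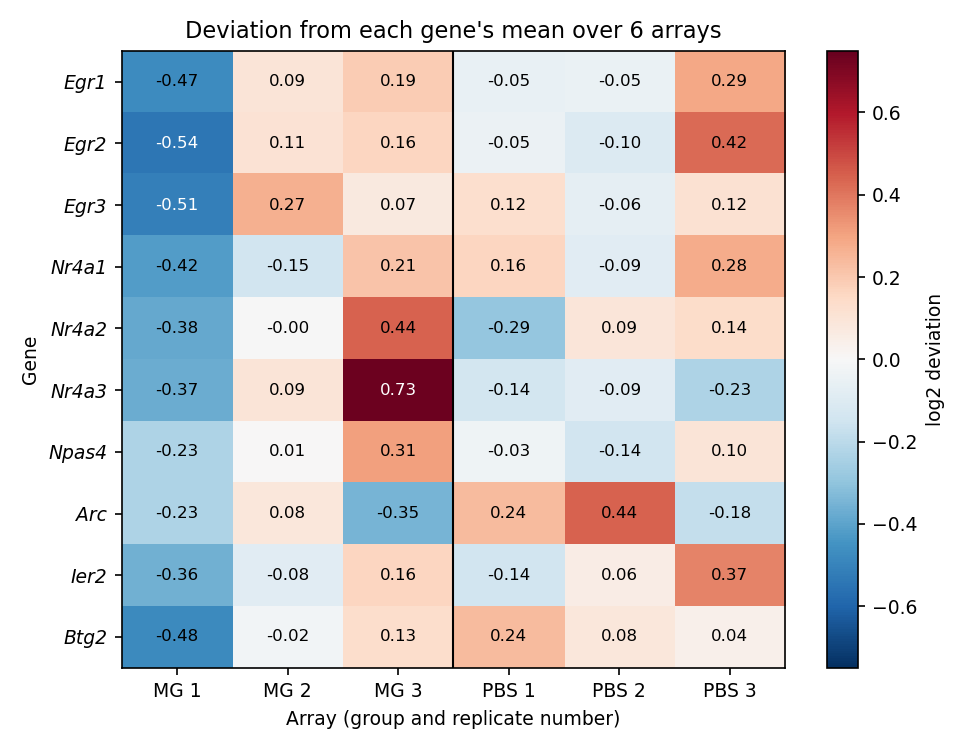
Deviation of each gene's log2 value from its mean over the 6 arrays (colour and printed number), MG arrays left of the line and PBS arrays right. The column of MG replicate 1 is below 0 for all 10 genes, Nr4a3 reaches 0.73 in MG replicate 3, and Arc is below 0 on both arrays numbered 3.

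Egr1 and Egr2 ranked the arrays almost alike. Pearson's r was 0.99 with an exact permutation p = 0.00278, and Spearman's rho was 0.94 with an exact permutation p = 0.0167, both two-sided over 6 arrays. With Benjamini-Hochberg adjustment over the 45 pairs among the 10 genes the exact permutation p was 0.125 for r and 0.188 for rho. Without the arrays farthest from the Egr1 median, MG replicate 1 and PBS replicate 3, r was 0.97 over 4 arrays. Those were a higher MG pair and a lower PBS pair, and the PBS pair was ordered differently in Egr1 and Egr2. This r therefore says little about cultures within a group. Among 13724 other genes above the reference level, Egr2 ranked 4 by its r with Egr1. Such a rank was not shared by most pairs. Ier2 ranked 307 and Egr3 ranked 590 by r with Egr1, and Nr4a3 ranked 1413 by r with Nr4a2.

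Egr3 with Egr1 had r = 0.85 and rho = 0.37 (exact permutation p = 0.0556 and p = 0.497, adjusted 0.184 and 0.772). Without the same 2 arrays r was 0.35. The relation rested on MG replicate 1, since r was 0.28 without that array alone and 0.89 without PBS replicate 3 alone. Ier2 had an r of 0.90 and a rho of 0.94 with Egr1 (exact permutation p = 0.0167 for each, adjusted 0.184 and 0.188), and r was 0.58 without those arrays. Among the Nr4a genes, Nr4a2 and Nr4a3 had r = 0.79 and rho = 0.60 (exact permutation p = 0.0458 and p = 0.242, adjusted 0.184 and 0.604), but r was -0.07 without MG replicates 1 and 3, the farthest from the Nr4a2 median. Nr4a1 had an r of 0.60 with Nr4a2 and of 0.43 with Nr4a3 (rho 0.77 and 0.20, exact permutation p of r 0.204 and 0.419, exact permutation p of rho 0.103 and 0.714). Adjusted over the pairs these were 0.378 and 0.524 for r, and 0.308 and 0.824 for rho. Without MG replicate 1 and PBS replicate 3, r was 0.20 and 0.50.

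Of the 45 pairs, 38 had an r above 0, and the 7 below 0 were all pairs with Arc. Setting Arc apart, which rests on these same values, thus removed every r below 0. Over the remaining 36 pairs r ran from 0.35 for Nr4a3 with Ier2 to 0.99 for Egr1 with Egr2, with a median of 0.75. These 36 pairs share the same 9 genes and 6 arrays. The median r over all pairs of genes above the reference level was 0.02. In this signed median, pairs above and below 0 offset each other, so it does not show how strongly other genes vary together. On the first principal component, the main axis of difference between arrays, MG replicate 1 stood highest at 0.14. MG replicate 3 and PBS replicate 3 stood at -0.25 and -0.14, and the remaining arrays between 0.066 and 0.097. The part of this axis in the r between the early genes was not tested. Of the 9 pairs with Arc, 7 had an r below 0, the lowest being -0.49 with Npas4, and the median was -0.11. The sign of these pairs turned on the arrays numbered 3: without MG replicate 3, 1 of the 9 was below 0 (median 0.16), and without both arrays numbered 3 none was (median 0.71). Without MG replicate 1, 8 of the 9 were below 0 (median -0.66). None of the 45 pairs passed after adjustment. With group means removed the median of all 45 pairs was 0.76, compared with 0.68 for the values as deposited. Without MG replicate 1 it dropped to 0.13, with 29 of the 45 pairs above 0 and 16 below. Of the 36 pairs without Arc, 28 were above 0 and 8 below. Egr1 with Egr2 stayed at 0.96 there, and Nr4a2 with Nr4a3 at 0.73, while Egr1 with Btg2 turned from 0.73 to -0.46.

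**Figure D4:**
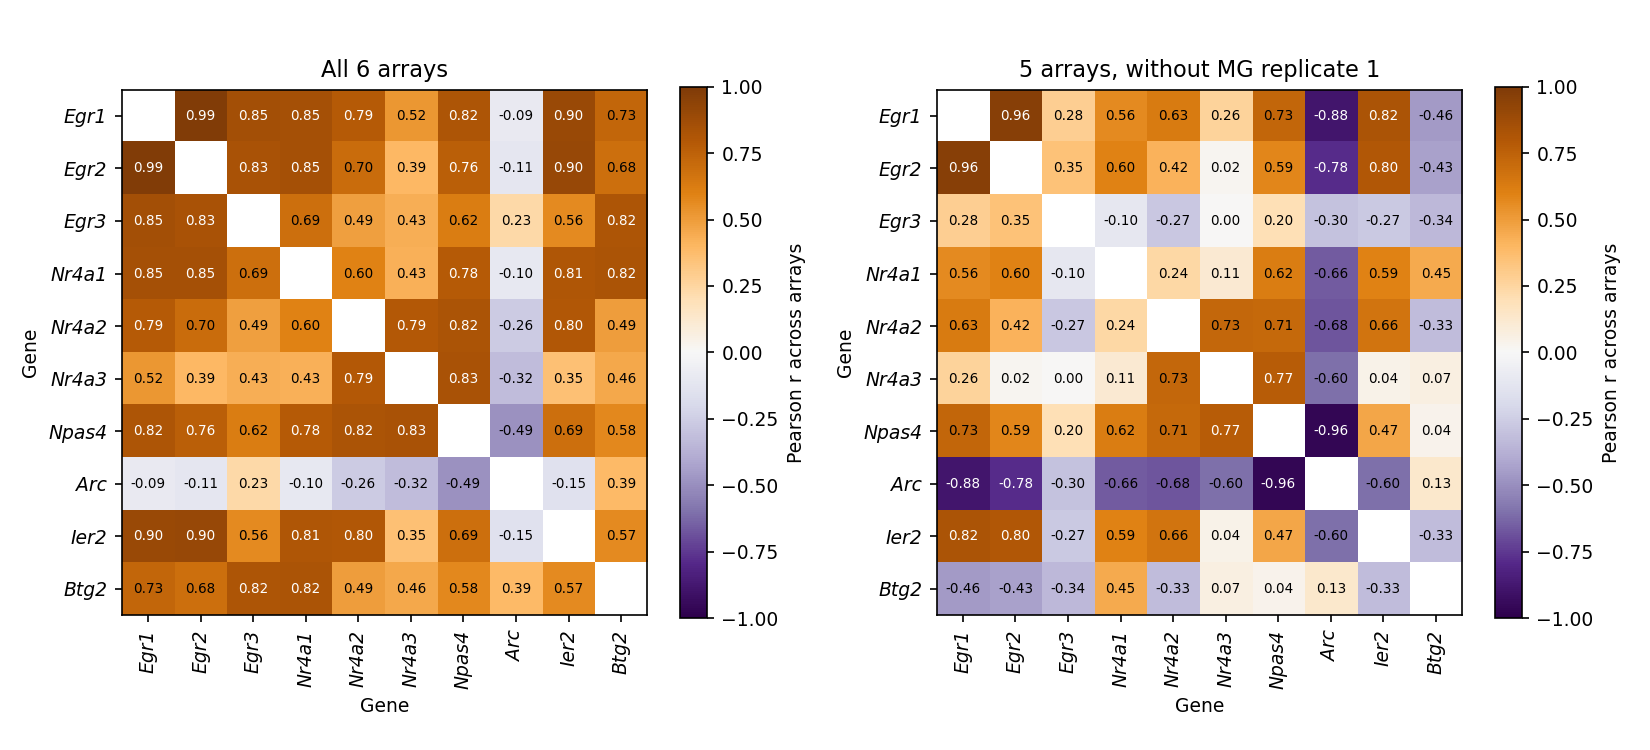
Pearson's r between the 10 genes over all 6 arrays (left) and over the 5 arrays without MG replicate 1 (right), as colour and printed number. The row of Arc is mostly below 0 in both panels, and Egr1 with Egr2 is at 0.99 and 0.96.

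A part of the other early response genes was also lowest in MG replicate 1. Among all genes above the reference level, 17.6% were lowest on that array and 43.1% had a lower mean in MG. Of 22 other early transcription regulators, 21 were tested and all 21 were above the reference level, 5 with a higher and 16 with a lower mean in MG, and 13 had their lowest value in MG replicate 1. Their median log2 difference was -0.09, and lay between -0.16 without MG replicate 3 and -0.014 without MG replicate 1. The 4 with the smallest unadjusted p were the AP-1 genes Fosl2 (-0.27) and Junb (-0.24), the TGF-beta induced repressor gene Klf10 (-0.22) and Mafk (-0.19), a small Maf factor, all as log2 differences. Fosl2 and Junb were lowest in MG replicate 1, and Klf10 and Mafk in MG replicate 3. Junb had 7.07, 7.56 and 7.49 in MG cultures, against 7.52, 7.68 and 7.65 in PBS cultures. The means of the list per array were -0.32, -0.06 and 0.22 in MG and 0.05, -0.08 and 0.19 in PBS.

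Of 33 other early effectors, 30 were above the reference level, 11 with a higher and 19 with a lower mean in MG, and 13 were lowest in MG replicate 1. The median difference of -0.03 was -0.12 without MG replicate 3 and 0.095 without MG replicate 1. Those with the smallest unadjusted p were Phlda1 (-0.23), Ier3 (-0.31) and Ier5l (-0.15), with lower means in MG, and the polo-like kinase gene Plk2 (0.23), with a higher one. Phlda1 and Ier3 were lowest in MG replicate 3, Ier5l in MG replicate 2 and Plk2 in PBS replicate 2. Dusp1, a phosphatase that switches off MAP kinases and was picked here after its values were seen, had 8.26, 9.23 and 9.73 in MG cultures and 8.94, 8.91 and 9.47 in PBS cultures. Its lowest and highest values were MG replicates 1 and 3, as for Nr4a2, Nr4a3 and Npas4.

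Upstream factors and coactivators were also lowest in MG replicate 1, in 13 of the 15 tested, all of which were above the reference level. They had a median difference of 0.02, with 9 higher and 6 lower means in MG. It was -0.082 without MG replicate 3 and 0.16 without MG replicate 1. The list had means per array of -0.29, 0.03 and 0.32 in MG and -0.05, -0.10 and 0.09 in PBS. The CREB coactivator gene Crtc1 had 8.34, 8.99 and 9.24 in MG cultures, against 8.62, 8.58 and 8.81 in PBS cultures. Its log2 difference was 0.19. The others named by the smallest unadjusted p were Crtc3 (0.23) and the ternary complex factor genes Elk1 (0.17) and Elk3 (-0.11).

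Among 16 partners and relatives of the 10 genes, 14 were above the reference level, 9 with a higher and 5 with a lower mean in MG, and 7 were lowest in MG replicate 1. Their median difference of 0.02 was -0.065 without MG replicate 3 and 0.038 without MG replicate 1. The Egr corepressor gene Nab2 had 10.51, 10.88 and 11.09 in MG cultures and 10.67, 10.55 and 10.62 in PBS cultures, a log2 difference of 0.21. The Npas4 partner gene Arnt2 differed by 0.20, the retinoid X receptor gene Rxra by 0.12, and Tob1, a relative of Btg2, by -0.16. None of the genes on these 4 lists had an unadjusted p under 0.05 in limma, against 3.21% of all genes tested. With so low a share, few would be found on lists of this size.

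Marker lists of other cell types differed between arrays as well. Astrocyte markers, all 11 of them above the reference level, averaged 0.33, 0.20 and -0.34 in MG and 0.01, 0.16 and -0.37 in PBS, so that they were lowest on the arrays numbered 3 and had their highest value in MG replicate 1. The mean level of the astrocyte list ran from 9.16 to 9.82 in MG cultures and from 9.13 to 9.66 in PBS cultures. Oligodendrocyte lineage markers, 10 tested and all above the reference level, averaged 0.29 in MG replicate 1 and between -0.17 and 0.12 elsewhere. Neuron markers, 13 of 14 above the reference level, stood at 0.02 in MG replicate 1. Over all 14 neuron markers the mean level was 6.91 to 7.11 in MG cultures and 6.92 to 7.00 in PBS cultures. Replication genes were at -0.12 in MG replicate 1, inside their range on the other arrays. The part of these lists in the early gene values was not tested.

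**Figure D5:**
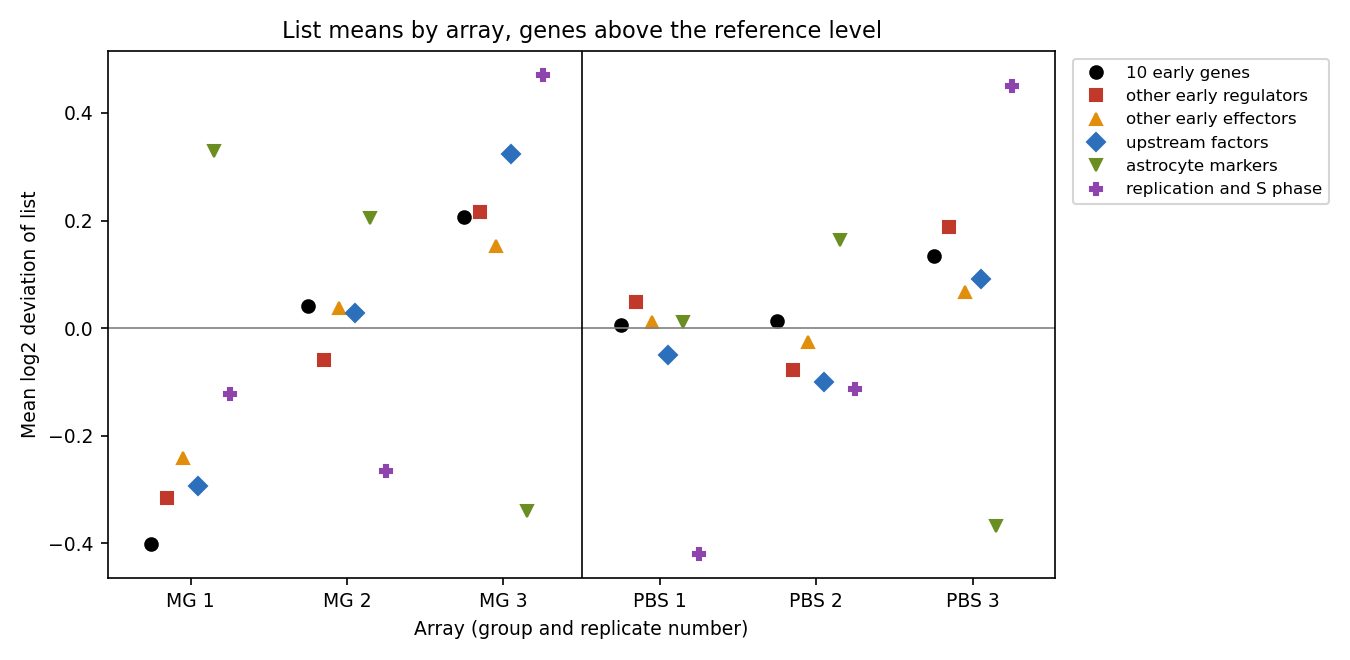
Mean log2 deviation of 6 gene lists on each array, over the list members above the reference level, MG arrays left of the line and PBS arrays right. The 4 early response lists are lowest in MG replicate 1, where the astrocyte markers are highest at 0.33, and the replication genes peak at 0.47 and 0.45 on the arrays numbered 3.

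The genes outside the 10 whose values followed their mean most closely over the 6 arrays were Pkn3 (r = 0.998), Mcts2 (0.994), Abcc5 (0.991), P3h2 (0.989), Baz2b (0.986), Sft2d2 (0.983), Mecr (0.983) and Mef2c (0.982). With 13725 genes and 6 arrays, high values arise easily, and 1.78% of the genes outside the 10 had an r over 0.9. Mef2c is a calcium-responsive factor on the list of upstream factors and had 8.07, 8.51 and 8.63 in MG cultures, against 8.40, 8.52 and 8.55 in PBS cultures. P3h2, a collagen prolyl hydroxylase gene, covered the widest range of the 8, with 7.19, 8.26 and 8.75 in MG cultures and 8.22, 8.06 and 8.58 in PBS cultures. Of the 10 genes themselves, Egr1 followed the common mean with r = 0.96, Nr4a3 with 0.66 and Arc with 0.02. These coefficients are descriptions, since each gene that was counted in the mean also shaped it.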

How the data were processed

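The deposited table holds log2 values made by the authors, 1 for each of 41345 probe sets on each of 6 arrays. The log2 scale was read from their range, 0.73 to 13.81. The submitters' processing notes name Partek 6.6, and how the arrays were background corrected, scaled and summarised was not stated in the sources at hand. The platform annotation gave 1 gene for 23521 probe sets, several for 1814 and none here for 16010, and symbols were updated from RefSeq GRCm38.p6. A gene with several probe sets was represented by the brightest on average. All 22180 genes were fitted with limma (version 3.58.1, R 4.3.3) as MG against PBS, without covariates, by lmFit and eBayes. Two-sided p-values were adjusted by Benjamini-Hochberg at a threshold of 0.05. Correlations were tested over all 720 orders of the arrays. The limma fit was tested on simulated data, and the correlations, ranks and motif search were not. Precision is limited by the small number of arrays.

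The genes and lists were chosen with earlier results of these data known. Of each list of early genes, upstream factors or partners, the 4 genes with the smallest unadjusted p above the reference level were named. The 8 genes closest to the mean pattern were named too, leaving out gene models and small RNAs. Of the cell type lists only summary values are given, with 2 stem cell genes as a check of the cultures. Endothelial and ependymal markers were also listed, with 6 of 10 and 3 of 6 above the reference level, at mean deviations of 0.068 and 0.082 in MG replicate 1. The alternatives covered dim genes left out, probe sets averaged or all kept, quantile or median scaling, the variance model, weights for arrays, a block for the replicate number, and arrays left out. The titles number the cultures 1 to 3 in both groups. Deviations from the group means correlated at 0.22, 0.04 and 0.45 for numbers 1, 2 and 3. Crossed, MG replicate 1 had 0.26 with PBS replicate 2, and MG replicate 2 had 0.23 with PBS replicate 1. MG replicate 3 had -0.34 and -0.24 with PBS replicates 1 and 2. The labels state no pairing, and the main fit did not pair the cultures. A factor shared by the arrays numbered 3 was not tested.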

Additional observations from a re-analysis of the deposited data

How the results depend on the processing

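Under every setting 0 genes passed limma's adjusted threshold, and the lowest adjusted p of the 10 early genes under any of the 16 alternatives was 0.990. Of 160 values of the 10 genes under these alternatives, 150 kept their sign and 10 turned it. Many of the kept signs were fixed in advance. Leaving out dim genes, averaging or keeping all probe sets, the variance model and the replicate block cannot change the differences of these genes. The count therefore overstates how stable the signs were. The count of genes with an unadjusted p under 0.05 was 712, compared with 246 without dim genes, 1288 over all probe sets and 1163 with array weights, and it ran from 416 to 956 with 1 array left out. The first 2 fits test fewer and more features; the cause of the other shifts was not tested. With the replicate number as a block it was 1063, and the block changed no call of the 10 genes. It could not change their differences, since each number occurs on 1 array of each group. With 1 array left out, the log2 difference ran from -0.25 to 0.082 for Egr1, from -0.31 to 0.043 for Egr2, from -0.28 to 0.11 for Egr3, from -0.17 to 0.24 for Nr4a2 and from -0.088 to 0.18 for Npas4, and the median of the 10 from -0.24 to 0.063. The upper ends for the Egr genes and the median came without MG replicate 1. Without both arrays numbered 3, Nr4a2 was at -0.095, Nr4a3 at -0.027 and Npas4 at -0.027. The median r between the 10 genes ran from 0.13 to 0.76 with 1 array left out. Applying the alternatives to the other gene lists was chosen after the data were seen.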
